A study of Canis lupus familiaris with 45 samples.

Results

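The growth hormone and insulin-like growth factor (IGF) axis was followed through 10 genes: GHR, STAT5B, CISH, SOCS2, IGF1, IGF2, IGF1R, IGFBP3, IGFBP4 and IGFBP5. Every probe set that carries 1 of these symbols in the array's platform annotation was taken, which gave 20 of 42860 probe sets, and 10 of 15115 annotated genes. Of the 20, 15 probe sets for 9 genes were tested, because they exceeded a log2 value of 4, taken as the detection level, on 4 or more of the 45 arrays. The other 5 were the only probe set of IGF2, 2 of the 4 for IGF1R, 1 of the 3 for IGFBP4 and 1 of the 3 for IGFBP5.

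The samples were subcutaneous fat of intact female beagles, 4 years old, randomised between feeding regimes and given the same diet, Purina Pro Plan Performance Formula. The 5 ad libitum dogs (dogs 2, 5, 6, 7 and 8) could eat freely once the week-0 sample was taken, whereas the 4 control dogs (dogs 1, 3, 4 and 9) received what held their baseline body weight. Fat was taken after an overnight fast at weeks 0, 4, 8, 12 and 24, with 1 Affymetrix canine array per dog and week, 25 ad libitum and 20 control. Values are log2 GCRMA expression values, so a difference of 1 stands for 2-fold, and a level is compared only within its own probe set.

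Growth hormone from the pituitary binds its receptor GHR, which switches on the kinase JAK2 and, through it, the transcription factors STAT5A and STAT5B. In rodents and humans STAT5 raises transcription of IGF1 and of the feedback inhibitors CISH and SOCS2, which then damp the receptor's signal. IGF1 and IGF2 act through the receptor tyrosine kinase IGF1R, and a family of binding proteins holds IGFs in blood and tissue and limits or prolongs their action. In fat, growth hormone is known for promoting lipolysis, and IGF1R is known from human and rodent cells as a receptor of preadipocytes, while mature fat cells rely on the insulin receptor.

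Some arrays stood apart. Skeletal muscle transcripts were present on 10 arrays, where the mean of 21 measured muscle markers was 7.81 to 13.99, and it was 3.66 to 5.49 on the other 35. These were the week-0 arrays of ad libitum dogs 5, 7 and 8 and of control dogs 1 and 3, the week-8 arrays of ad libitum dog 7 and control dog 4, the week-12 array of ad libitum dog 7, and the week-24 arrays of control dogs 3 and 4. In dog identity, read from 100 probe sets that tell the dogs apart, 43 of 45 arrays went with their own dog. The exceptions were both of week 8, where the array labelled dog 5 had the profile of control dog 9 (r = 0.962) and the array labelled dog 9 that of ad libitum dog 5 (r = 0.944), so week-8 values are given as labelled. All 8 adipocyte markers were above 4 on all 45 arrays, and at week 24 their mean was 13.55 (range 12.25 to 13.99) in ad libitum dogs and 12.80 (range 12.14 to 13.25) in control dogs. Fibroblast and preadipocyte markers then averaged 13.64 ± 0.43 (SD, n = 5) in ad libitum dogs and 14.17 ± 0.37 (SD, n = 4) in control dogs. Smooth muscle and pericyte markers averaged 9.75 ± 0.62 in ad libitum dogs and 10.43 ± 0.62 in control dogs at that week, and the part of either list in the results was not tested.

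At week 24 the ad libitum dogs had lower levels of both feedback inhibitors, CISH and SOCS2, and of IGF1R, and higher levels of IGF1 and, in 1 of its 2 tested probe sets, of IGFBP4, than the control dogs. None of GHR, STAT5B, IGFBP3 and IGFBP5 passed the test. As the tissue was measured in bulk, fewer cells of a type and less RNA per cell cannot be told apart. In all, 7 of the 15 tested probe sets (46.7%) for 5 genes were past the threshold, an adjusted p under 0.05 in limma over all 22687 tested probe sets. Among all tested probe sets 5.46% were past it. Of the 7, 3 were higher, against 3.76% of all, and 4 were lower, against 1.69% of all. The feeding groups did not overlap in 7 of the 15, against 9.75% of all. The median difference of the 15 was 0.03, and that of all tested probe sets 0.01.

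**Figure D1:**
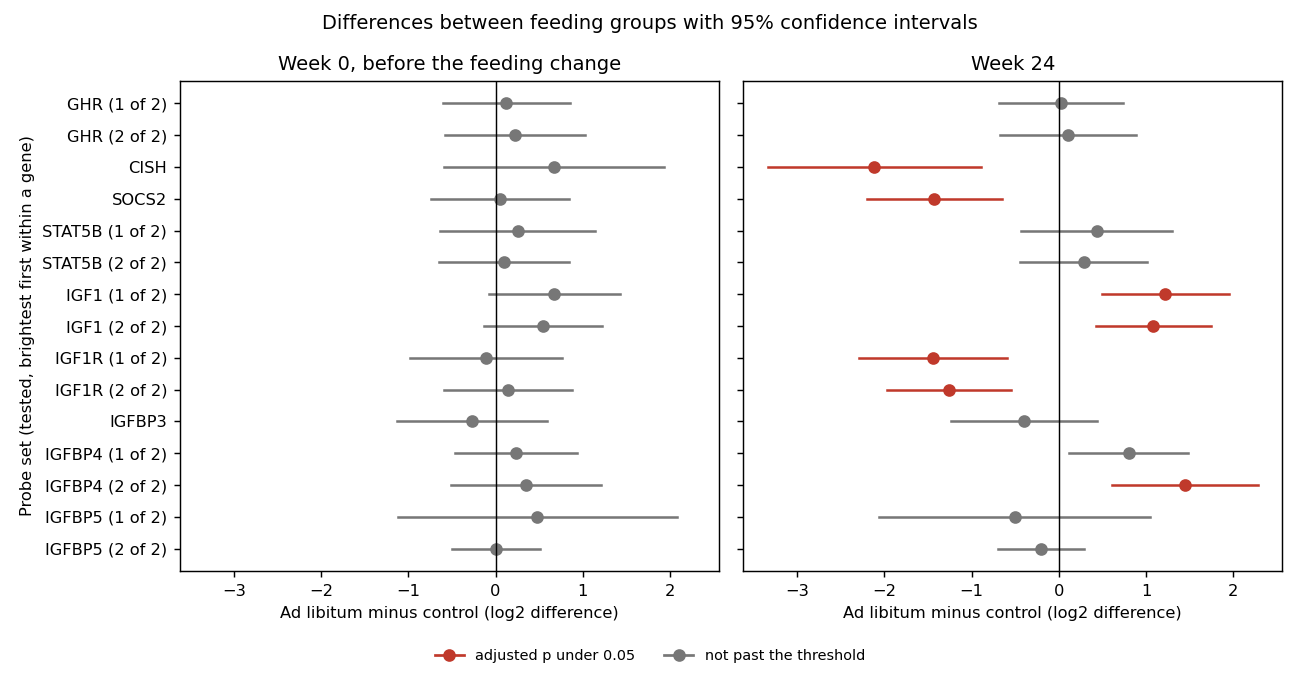
Differences between the feeding groups at week 0 (left) and week 24 (right) for the 15 tested probe sets. The x axis is the ad libitum minus control difference in log2 units, points are the limma estimates and bars their 95% confidence intervals; red marks an adjusted p under 0.05. At week 0 all 15 intervals cross 0, and at week 24 the 7 red points lie between -2.12 for CISH and 1.44 for IGFBP4.

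These week-24 calls lay close to the threshold, with adjusted p of 0.0239 to 0.0427. The 10 arrays with muscle transcripts include 2 of the 4 control arrays of week 24, and the muscle marker mean at that week was 3.66 to 5.49 in ad libitum dogs and 3.85 to 10.02 in control dogs. Without all 10 arrays the count was 0, and calls over all probe sets went down to 58, against 1238 with them. The differences then stood at -2.78 for CISH, -1.35 for SOCS2, 1.30 and 1.14 for IGF1, -1.57 and -1.27 for IGF1R and 1.46 for IGFBP4. With the muscle marker mean as a covariate, an alternative added after seeing the data, the count was 5, with 1234 calls over all probe sets.

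The 3′ minus 5′ value of actin, a measure of RNA quality, was 3.51 ± 0.91 (SD, n = 5) in ad libitum dogs and 4.79 ± 1.20 (SD, n = 4) in control dogs at week 24. With it as a covariate 0 of the 15 and 29 of all probe sets were called. The differences were then -2.32 for CISH, -1.62 for SOCS2 and 1.16 and 1.01 for IGF1, while the brightest IGF1R probe set had -0.80, the other -1.07 and IGFBP4 0.95. With 1 dog left out the count was 0 without dog 2, 3 or 7, 2 without dog 4 or 9, 3 without dog 1, 6 or 8, and 8 without dog 5. Calls over all probe sets then ran from 236 without dog 2 to 3092 without dog 5. All 7 differences kept their sign in every alternative that was run.

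GHR, the growth hormone receptor (Entrez gene 403721), had 2 probe sets with r = 0.97 between them over the 45 arrays. At week 24 the brighter one had 13.49, 12.56, 13.82, 13.96 and 13.91 in ad libitum dogs 2, 5, 6, 7 and 8, against 14.02, 12.94, 13.23 and 13.90 in control dogs 1, 3, 4 and 9. The groups overlapped throughout, and the limma difference was 0.03 (95% interval -0.68 to 0.73, adjusted p = 0.978). By week, the group means were 13.89 ± 0.71, 12.93 ± 0.45, 12.98 ± 0.52, 12.96 ± 0.38 and 13.55 ± 0.58 in ad libitum dogs (SD, n = 5 each). In control dogs they were 13.64 ± 0.23, 13.61 ± 0.42, 13.76 ± 0.23, 13.06 ± 0.94 and 13.52 ± 0.52 (SD, n = 4 each). The lowest ad libitum means were thus those of weeks 4, 8 and 12, and they differed from one another by less than their spread. At week 8 the difference between the groups was -0.78 (SE 0.35, adjusted p = 0.163), which did not pass the test.

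STAT5B, the transcription factor that carries the growth hormone signal to the nucleus, also had 2 tested probe sets (Entrez gene 490969; r = 0.96 over the 45 arrays). Its levels at week 24 were lower than at week 0 in both feeding groups. The brighter probe set had 8.78, 8.52, 9.56, 9.36 and 9.98 at week 0 and 8.10, 6.73, 8.02, 8.60 and 8.37 at week 24 in ad libitum dogs 2, 5, 6, 7 and 8. In control dogs 1, 3, 4 and 9 it had 8.84, 9.52, 8.75 and 9.31 at week 0 and 8.08, 7.29, 6.48 and 8.25 at week 24. The later value was the lower one in 5 of 5 ad libitum and 4 of 4 control dogs.

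Between week 0 and week 24 STAT5B fell by 1.35 (SE 0.41, limma adjusted p = 0.0498) in ad libitum dogs. In control dogs it fell by 1.53 (SE 0.45, adjusted p = 0.0326). It was the 1 member probe set of 15 past the threshold in each of these changes, against 4.78% of all tested probe sets in ad libitum dogs and 7.92% in control dogs. The other STAT5B probe set had -0.88 (adjusted p = 0.125) in ad libitum dogs and -1.07 (adjusted p = 0.0733) in control dogs. All week-24 arrays form a laboratory batch of their own. Time and batch therefore cannot be told apart here, nor in any other change from week 0 to week 24 within a feeding group. The STAT5B call in ad libitum dogs was past the threshold in 7 of 20 alternatives. Among those that lost it were no replicate block (adjusted p = 0.0511) and leaving out any 1 dog other than dog 4. The call in control dogs was past the threshold in 12 of 20, and leaving out dog 1, 3, 4, 6 or 9 was among those that lost it. With the actin value as a covariate the change was -1.10 in ad libitum dogs (adjusted p = 0.161) and -0.997 in control dogs (adjusted p = 0.672). Without the arrays with muscle transcripts the change was -1.42 in ad libitum dogs (adjusted p = 0.332) and -0.58 in control dogs (adjusted p = 0.833). The difference between the groups in STAT5B at week 24 did not pass the test (0.44, 95% interval -0.43 to 1.30, adjusted p = 0.577).

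At week 12 STAT5B had 8.60, 7.25, 7.55, 8.84 and 6.98 in ad libitum dogs, against 9.13, 9.90, 8.25 and 9.02 in control dogs. The ad libitum values were mostly the lower ones, with overlap through dogs 2 and 7. The difference was -1.38 (SE 0.46, adjusted p = 0.451), and that of the other probe set -1.13 (adjusted p = 0.451), neither past the threshold. Over weeks 0, 4, 8, 12 and 24 STAT5B averaged 9.24 ± 0.59, 8.73 ± 0.69, 9.11 ± 0.56, 7.84 ± 0.83 and 7.96 ± 0.73 in ad libitum dogs (SD, n = 5 each). In control dogs the means were 9.10 ± 0.37, 9.51 ± 0.45, 8.86 ± 0.12, 9.08 ± 0.68 and 7.53 ± 0.82 (SD, n = 4 each). Ad libitum means were thus lowest at weeks 12 and 24, and the control mean at week 24.

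**Figure D2:**
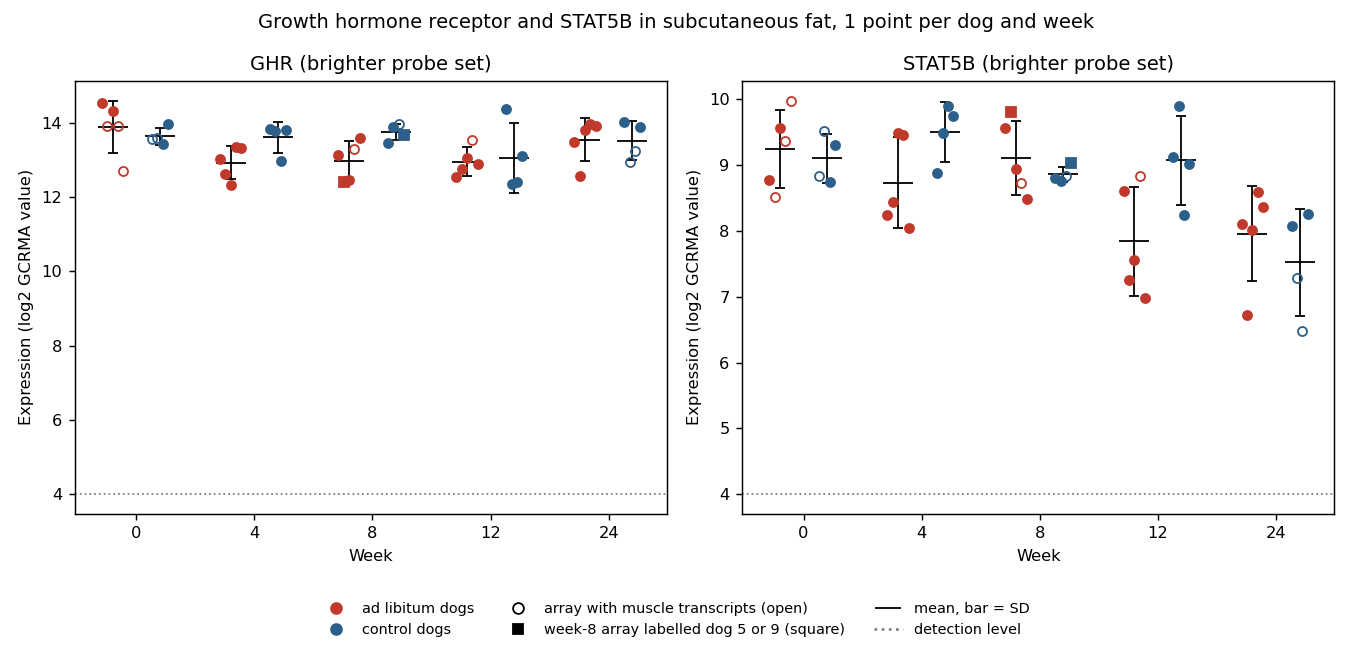
Log2 GCRMA values of GHR (left) and STAT5B (right), brighter probe set of each, by week on the x axis, with ad libitum dogs in red and control dogs in blue. Each point is 1 array, lines and bars are mean and SD, open points are arrays with muscle transcripts, squares the week-8 arrays labelled dog 5 or 9, and the dotted line is the detection level of 4. The groups overlap at each week for STAT5B, whose week-24 means of 7.96 in ad libitum and 7.53 in control dogs lie below those of week 0.

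CISH and SOCS2 belong to the SOCS family, whose members bind activated cytokine receptors and shut off their signal; CISH competes for the STAT5 docking sites of the receptor, and SOCS2 marks GHR for breakdown, as known from mice and human cells. At week 24 both were lower in the ad libitum dogs, with no overlap between the groups.

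CISH (Entrez gene 484757) was weakly expressed, above 4 on 18 of 45 arrays. At week 24 it had 3.30, 2.49, 3.69, 2.43 and 3.15 in ad libitum dogs 2, 5, 6, 7 and 8, against 5.41, 4.68, 4.16 and 6.27 in control dogs 1, 3, 4 and 9. All 5 ad libitum values were below the detection level and all 4 control values above it. The fitted difference was -2.12 (SE 0.60, limma adjusted p = 0.0345), and since the ad libitum level is only bounded, the transcript was at least 2.19-fold lower in ad libitum dogs, taken against the detection level of 4. The lowest control values were those of dogs 4 and 3, whose arrays carried muscle transcripts.

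SOCS2 (Entrez gene 482603) was above 4 on all 45 arrays. At week 24 it had 6.66, 7.45, 7.32, 7.43 and 7.40 in ad libitum dogs, against 8.46, 9.63, 7.89 and 8.73 in control dogs. Ad libitum dogs 5, 6, 7 and 8 lay close together, and dog 2 was lower still, whereas control dogs spread from 7.89 in dog 4 to 9.63 in dog 3. The difference was -1.43 (SE 0.38, 2.69-fold lower, limma adjusted p = 0.0239), the smallest adjusted p of the 15.

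**Figure D3:**
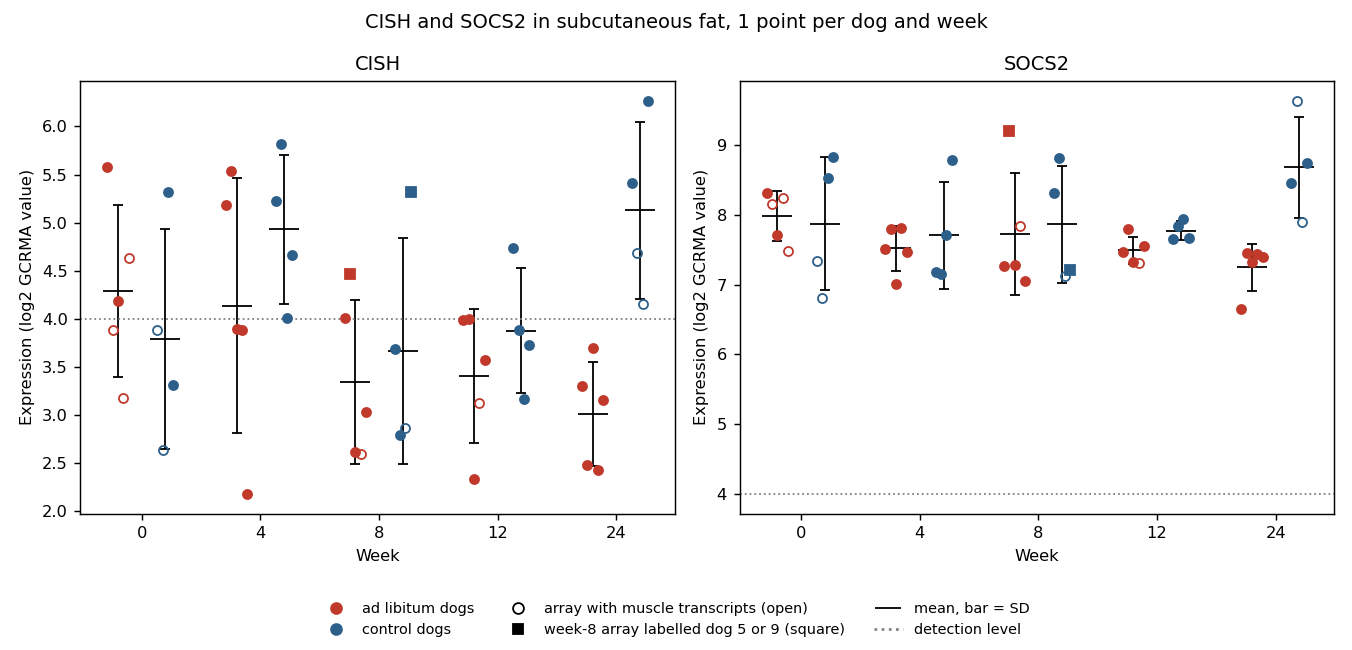
Log2 GCRMA values of CISH (left) and SOCS2 (right) by week on the x axis, with ad libitum dogs in red and control dogs in blue; each point is 1 array, lines and bars are mean and SD. Open points are arrays with muscle transcripts, squares the week-8 arrays labelled dog 5 or 9, and the dotted line is the detection level of 4. At week 24 all ad libitum points lie below all control points in both panels, and at the other weeks the groups overlap.

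The groups overlapped for both inhibitors at weeks 0, 4, 8 and 12. CISH averaged 4.29 ± 0.89, 4.14 ± 1.33, 3.34 ± 0.85, 3.40 ± 0.70 and 3.01 ± 0.54 in ad libitum dogs at weeks 0, 4, 8, 12 and 24 (SD, n = 5 each). In control dogs it averaged 3.79 ± 1.14, 4.93 ± 0.77, 3.67 ± 1.17, 3.88 ± 0.65 and 5.13 ± 0.92 (SD, n = 4 each). The ad libitum mean was thus above the detection level at weeks 0 and 4 and below it at weeks 8, 12 and 24, where the means have no order. The control mean was highest at week 24.

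SOCS2 averaged 7.98 ± 0.36, 7.52 ± 0.32, 7.73 ± 0.87, 7.49 ± 0.20 and 7.25 ± 0.34 in ad libitum dogs over the same weeks (SD, n = 5 each). In control dogs it averaged 7.87 ± 0.96, 7.71 ± 0.76, 7.86 ± 0.83, 7.77 ± 0.14 and 8.68 ± 0.73 (SD, n = 4 each). Control means of weeks 0 to 12 thus lay between 7.71 and 7.87, and the week-24 mean stood above all of them.

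Within dogs, CISH was above the detection level at week 0 and below it at week 24 in ad libitum dogs 2, 6 and 8, and below it at both weeks in ad libitum dogs 5 and 7, whose values therefore have no order. In control dogs 1, 3 and 9 it was below the detection level at week 0 and above it at week 24, and in dog 4 above it at both, at 5.32 and 4.16. From week 0 to week 24, SOCS2 changed by -1.65, -0.70, -0.40, -0.81 and -0.08 in ad libitum dogs, against 1.12, 2.82, -0.63 and -0.09 in control dogs. All ad libitum values of SOCS2 were lower at week 24, but so were those of control dogs 4 and 9, and the groups overlapped.

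Each feeding group was next measured against its own week 0. The limma fit hardly used the pairing by dog, as the correlation within dogs was 0.00563. None of the axis passed the test across all probe sets. This feeding effect at week 24, the change in ad libitum dogs minus the change in control dogs, was called by limma for 0 of the 15 probe sets, against 0.022% of all; 4 had an unadjusted p under 0.05, against 10.2% of all. It was -2.79 for CISH (SE 0.86, limma adjusted p = 0.261), a fitted value that rests in part on arrays below the detection level. For SOCS2 it was -1.48 (SE 0.54, adjusted p = 0.357). The IGF1R probe sets had -1.33 (adjusted p = 0.449) and -1.40 (adjusted p = 0.335), also in part from arrays below that level. For IGF1 it was 0.55 (SE 0.51, adjusted p = 0.739) and for the dimmer tested IGFBP4 probe set 1.09 (SE 0.59, adjusted p = 0.531).

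A 2-sided exact permutation of the 9 dogs over 126 splits had a smallest possible p of 0.00794. It was run on each dog's plain change from week 0 to week 24, with no batch term. Its values therefore differ from the limma ones, as for the brighter IGF1 probe set, at 0.68 here and 0.55 in limma. The exact p was 0.0476 for SOCS2 and 0.0556 for each IGF1 probe set. CISH is left out here because of its values below the detection level. For IGF1R it was 0.0476 for the brightest probe set and 0.00794, the smallest possible, for the other. Both IGF1R values also rest in part on arrays below the detection level. For the brightest that was ad libitum dog 2 at week 24, and for the other it was arrays of both feeding groups. After Benjamini-Hochberg adjustment over the 15 probe sets no exact p was under 0.119. The feeding effect averaged over weeks 4, 8, 12 and 24 was called by limma for 0 of the 15 (1 with an unadjusted p under 0.05, against 4.22% of all) and for 0% of all probe sets, with CISH at -1.72 (SE 0.70), likewise in part from arrays below the detection level.

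IGF1, the growth factor made in liver and also locally in fat, was higher in the ad libitum dogs at week 24. Over weeks 4 to 12 it was also higher, past the threshold in 1 of its 2 probe sets. In that probe set a difference of 0.68, not past the threshold, was already there at week 0. IGF1 had 2 probe sets (Entrez gene 610255; r = 0.95 over the 45 arrays), above 4 on all arrays. At week 24 the brighter one had 9.82, 9.98, 9.61, 10.27 and 10.41 in ad libitum dogs 2, 5, 6, 7 and 8, against 8.45, 8.86, 8.87 and 9.00 in control dogs 1, 3, 4 and 9. Every ad libitum value was above every control value. The difference was 1.22 (SE 0.36, 2.33-fold higher, limma adjusted p = 0.0393), and the other probe set gave 1.08 (SE 0.32, 2.12-fold higher, adjusted p = 0.0427).

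Over weeks 4, 8 and 12 together, IGF1 was the 1 member probe set of 15 past the threshold, against 1.34% of all tested probe sets. Its difference was 0.88 (SE 0.22, limma adjusted p = 0.0285), and that of the other IGF1 probe set 0.60 (SE 0.20, adjusted p = 0.131). Without the arrays with muscle transcripts it was 0.89 (adjusted p = 0.0474), and with the actin value as a covariate 0.87 (adjusted p = 0.0377). Without the week-8 arrays labelled dogs 5 and 9 it was 1.10 (adjusted p = 0.00206). The call was lost without control dogs 1, 3 or 4 or without ad libitum dog 8, with values of 0.66 to 0.91 and adjusted p of 0.0945 to 0.179.

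Within laboratory batches 1 to 5, over weeks 4 to 12, the IGF1 difference was 1.43, 1.16, 0.60, 1.15 and -0.51. These compare plain means of arrays that were not matched by week, with 1 ad libitum array in batch 2. The exception was batch 5, whose only control array is the week-8 array labelled dog 9, at 10.82. That array matched ad libitum dog 5 in identity.

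**Figure D4:**
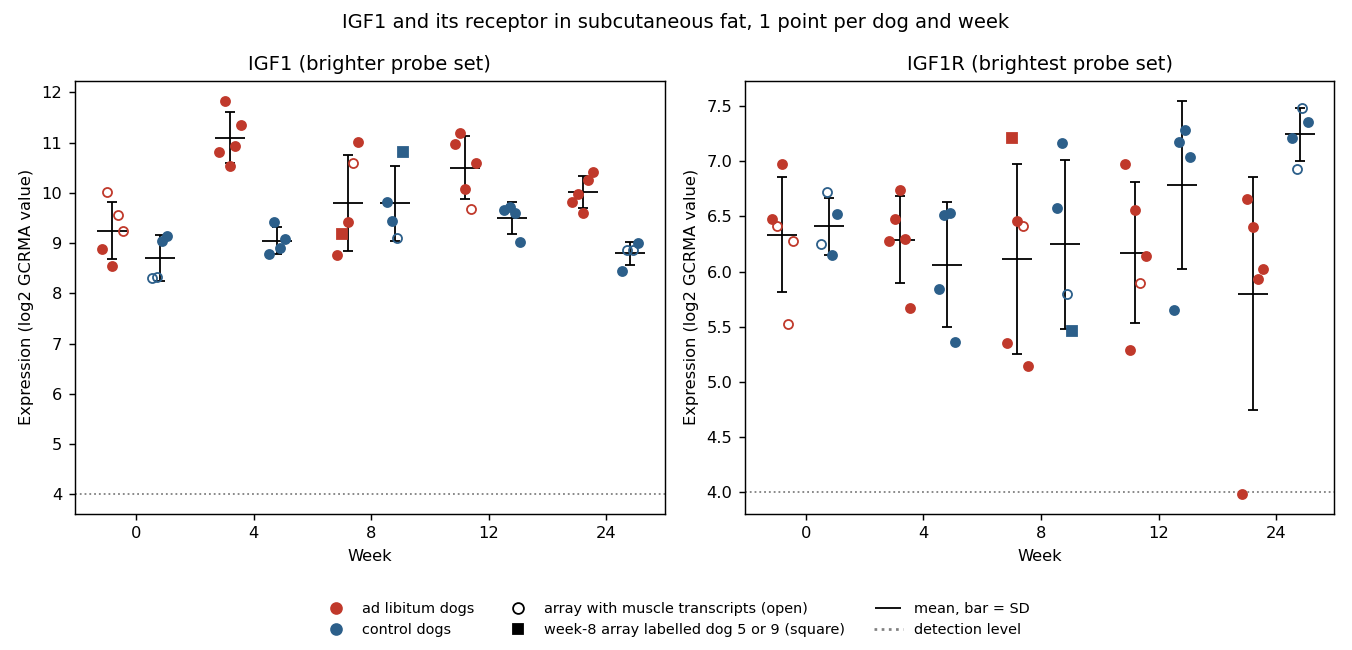
Log2 GCRMA values of IGF1 (left, brighter probe set) and IGF1R (right, brightest probe set) by week on the x axis, with ad libitum dogs in red and control dogs in blue; each point is 1 array, lines and bars are mean and SD. Open points are arrays with muscle transcripts, squares the week-8 arrays labelled dog 5 or 9, and the dotted line is the detection level of 4. For IGF1 the groups are apart at weeks 4 and 24, and for IGF1R at week 24 only, where ad libitum dog 2 is lowest at 3.98.

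The widest IGF1 gap was at week 4, with 10.81, 11.84, 10.53, 10.94 and 11.35 in ad libitum dogs, against 8.79, 9.41, 8.91 and 9.09 in control dogs. The groups were more than 1 log2 unit apart at their nearest values. The fitted difference was 1.66 (SE 0.42, limma adjusted p = 0.170) and 1.28 (SE 0.38, adjusted p = 0.291) for the other probe set, neither past the threshold. At week 4 the ad libitum arrays lay in batches 3, 4 and 5 and the control arrays in batches 1 and 2, and the actin value was 1.75 ± 0.24 (SD, n = 5) in ad libitum dogs, against 3.00 ± 0.27 (SD, n = 4) in control dogs. The mean of the 8 fibroblast and preadipocyte markers at week 4 was 13.93 ± 0.22 in ad libitum dogs and 13.32 ± 0.42 in control dogs, and the part of either measure in the IGF1 gap was not tested. With no batch term the IGF1 difference was 2.05 (adjusted p = 0.00718), and without the arrays with muscle transcripts 2.37 (adjusted p = 0.0342).

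IGF1 averaged 9.25 ± 0.57, 11.10 ± 0.51, 9.80 ± 0.96, 10.50 ± 0.63 and 10.02 ± 0.33 in ad libitum dogs at weeks 0, 4, 8, 12 and 24 (SD, n = 5 each). In control dogs it averaged 8.70 ± 0.45, 9.05 ± 0.27, 9.79 ± 0.74, 9.50 ± 0.33 and 8.80 ± 0.24 (SD, n = 4 each). Ad libitum dogs were thus highest at week 4. Control dogs, as labelled, were highest at week 8, where the groups had nearly the same mean. At that week IGF1 had 8.76, 9.19, 9.42, 10.59 and 11.02 in ad libitum dogs 2, 5, 6, 7 and 8, against 9.81, 9.44, 9.10 and 10.82 in control dogs 1, 3, 4 and 9. Those values overlapped fully, with a difference of 0.01 (SE 0.36). The 9.19 of dog 5 and the 10.82 of dog 9 came from the arrays that matched each other's dog in identity. The week-8 means, their difference and the control peak therefore depend on these labels. At week 12 IGF1 had 10.98, 11.20, 10.07, 9.68 and 10.59 in ad libitum dogs, against 9.67, 9.73, 9.59 and 9.02 in control dogs. Here ad libitum dog 7 alone lay below the highest control value, and the difference was 0.97 (SE 0.39, limma adjusted p = 0.451).

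Before the feeding change IGF1 already had 8.89, 10.01, 8.55, 9.56 and 9.23 in the ad libitum dogs, against 8.30, 8.32, 9.04 and 9.15 in the control dogs. The groups overlapped, with a difference of 0.68 (SE 0.37, limma adjusted p = 1.00). Between weeks 0 and 24 both IGF1 probe sets were higher at the later time in 4 of 5 ad libitum dogs. In control dogs the brighter one was higher at week 24 in 2 of 4 and the other in 0 of 4. Averaged over weeks 4 to 12, the change from week 0 was 0.98 in ad libitum dogs (SE 0.29, limma adjusted p = 0.0651). In control dogs it was 0.77 (SE 0.31, adjusted p = 0.318), and neither change passed the threshold. The feeding effect averaged over weeks 4, 8, 12 and 24 was 0.29 (SE 0.42) for IGF1. For its other probe set that effect was 0.17 (SE 0.38), and neither passed.

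IGF2, the growth factor best known from fetal growth, was not detected. Its only probe set (Entrez gene 483664) was above 4 on 0 of 45 arrays, with a highest value of 2.83, and it was not tested.

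IGF1R (Entrez gene 442951), the cell surface receptor of both IGFs, was lower in the ad libitum dogs at week 24 in each of its 2 tested probe sets. The brightest had 3.98, 6.66, 6.41, 5.93 and 6.02 in ad libitum dogs 2, 5, 6, 7 and 8, against 7.21, 6.93, 7.48 and 7.36 in control dogs 1, 3, 4 and 9. Every ad libitum value was below every control value, with dog 2 far below the other ad libitum dogs. The difference was -1.44 (SE 0.42, 2.72-fold lower, limma adjusted p = 0.0371). Without dog 2 it was -0.99 (adjusted p = 0.177).

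The other tested IGF1R probe set, close to the detection level, had 3.46, 4.31, 4.21, 3.73 and 3.94 in ad libitum dogs, against 4.90, 5.41, 5.11 and 5.35 in control dogs. Again no value overlapped, and the difference was -1.26 (SE 0.35, limma adjusted p = 0.0298). The 2 probe sets correlated with r = 0.71 over the 45 arrays. The remaining IGF1R probe sets reached at most 4.16 and 2.45 and were not tested.

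In its brightest probe set IGF1R had higher values in the control dogs at week 24 than at week 0, by 0.95, 0.21, 1.33 and 0.84 in dogs 1, 3, 4 and 9. Ad libitum dogs differed by -2.50, 0.25, -0.57, 0.41 and -0.25 in dogs 2, 5, 6, 7 and 8. The direction was thus the same in all 4 control dogs and mixed in ad libitum dogs. The other tested probe set, which was below the detection level at week 24 in ad libitum dogs 2, 7 and 8, differed by -0.64, -0.04, -0.52, -0.57 and -0.41 in ad libitum dogs and by 0.33, 0.40, 1.64 and 1.53 in control dogs. There the values were lower in 5 of 5 ad libitum and higher in 4 of 4 control dogs. Control dogs 4 and 9, with the largest rises, were below the detection level at week 0, at 3.47 and 3.82. The size of those rises thus rests in part on undetected values. Neither change of the brightest probe set passed the test in limma, with 0.83 in control dogs (SE 0.44, adjusted p = 0.242) and -0.50 in ad libitum dogs (SE 0.40, adjusted p = 0.471). At weeks 0, 4, 8 and 12 the differences between the groups were -0.11, -0.02, -0.15 and -0.39, with adjusted p of 0.702 or more. Its means over weeks 0, 4, 8, 12 and 24 were 6.33 ± 0.52, 6.29 ± 0.40, 6.11 ± 0.86, 6.17 ± 0.64 and 5.80 ± 1.06 in ad libitum dogs (SD, n = 5 each). In control dogs they were 6.41 ± 0.26, 6.06 ± 0.57, 6.25 ± 0.77, 6.79 ± 0.76 and 7.24 ± 0.24 (SD, n = 4 each). The control mean was highest at week 24, and the ad libitum mean was lowest there.

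IGFBP4 (Entrez gene 608158), a binding protein that holds IGF1 away from its receptor until the protease PAPPA cuts it, was higher in the ad libitum dogs at week 24 in 1 of its 2 tested probe sets. That probe set had 9.43, 8.34, 9.11, 9.01 and 9.32 in ad libitum dogs 2, 5, 6, 7 and 8, against 7.97, 7.74, 7.67 and 7.01 in control dogs 1, 3, 4 and 9. The groups did not overlap, and ad libitum dog 5 and control dog 1 came closest. The difference was 1.44 (SE 0.41, 2.72-fold higher, limma adjusted p = 0.0353).

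The brighter IGFBP4 probe set (r = 0.91 with the other over the 45 arrays) had 12.84, 11.72, 12.10, 12.33 and 12.96 in ad libitum dogs, against 12.16, 11.46, 11.45 and 11.27 in control dogs. These groups overlapped through control dog 1, and the difference of 0.80 (SE 0.34, adjusted p = 0.144) did not pass. At week 8 the same 2 probe sets differed by 1.18 (SE 0.34, adjusted p = 0.0559) and 1.36 (SE 0.42, adjusted p = 0.0633), short of the threshold. For the brighter one the groups did not overlap at week 8, as was the case for 3.76% of all tested probe sets. The mean of the 8 adipocyte markers did not overlap either at week 8, at 13.60 to 14.04 in ad libitum dogs and 13.03 to 13.58 in control dogs, and its part in the difference was not tested. Without the arrays with muscle transcripts both passed at week 8, at 1.45 (adjusted p = 0.0193) and 1.78 (adjusted p = 0.0201). Without the week-8 arrays labelled dogs 5 and 9 they stood at 0.79 (adjusted p = 0.310) and 0.96 (adjusted p = 0.347). The brighter IGFBP4 probe set had a median of 11.48 on the 10 arrays that carried them and 12.38 on the other 35. Over weeks 0, 4, 8, 12 and 24 that probe set averaged 11.85 ± 0.63, 12.59 ± 0.51, 13.22 ± 0.69, 12.55 ± 0.59 and 12.39 ± 0.51 in ad libitum dogs (SD, n = 5 each). Its control means were 11.75 ± 0.70, 12.31 ± 0.38, 12.04 ± 0.19, 12.65 ± 0.50 and 11.58 ± 0.39 (SD, n = 4 each). The highest mean was that of week 8 in ad libitum dogs and that of week 12 in control dogs.

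**Figure D5:**
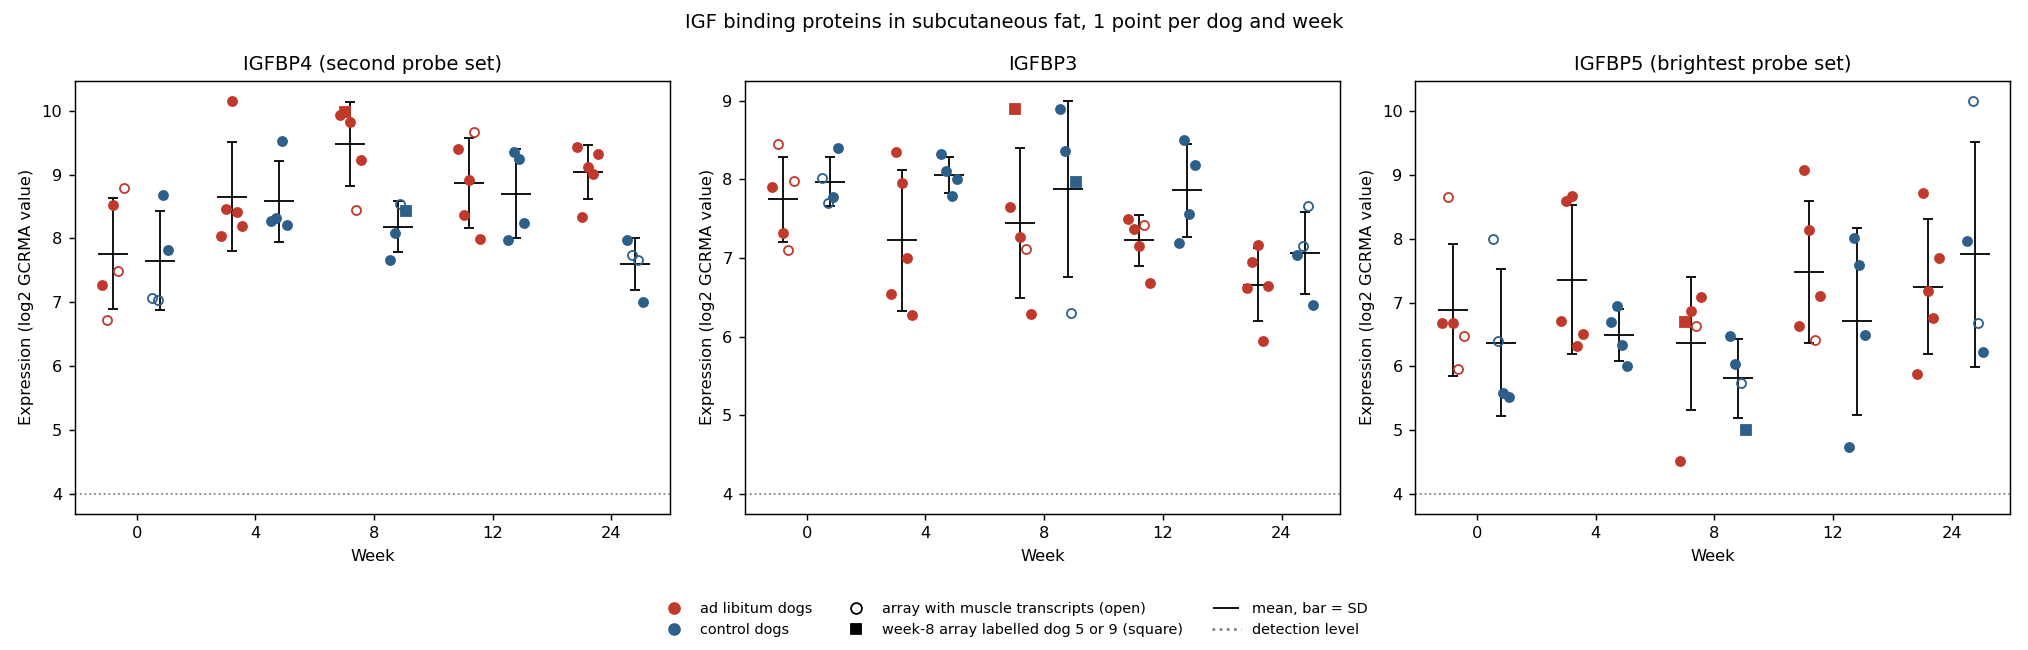
Log2 GCRMA values of IGFBP4 (left, the dimmer of its tested probe sets), IGFBP3 (middle) and IGFBP5 (right, brightest probe set) by week on the x axis, with ad libitum dogs in red and control dogs in blue; each point is 1 array, lines and bars are mean and SD. Open points are arrays with muscle transcripts, squares the week-8 arrays labelled dog 5 or 9, and the dotted line is the detection level of 4. Only for IGFBP4 at week 24 are the groups apart, at 8.34 to 9.43 in ad libitum and 7.01 to 7.97 in control dogs.

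IGFBP3 (Entrez gene 491618), the main carrier of IGFs in blood, had 6.62, 6.95, 7.17, 5.94 and 6.64 in ad libitum dogs at week 24, against 7.04, 7.16, 7.66 and 6.40 in control dogs. The groups overlapped and the difference was -0.40 (SE 0.41, limma adjusted p = 0.600). At week 4 it was -1.42 (SE 0.49, adjusted p = 0.386), with 6.54, 8.35, 7.96, 7.00 and 6.28 in ad libitum dogs, against 8.32, 8.11, 7.79 and 8.01 in control dogs. Over weeks 4 to 12 it was -0.73 (SE 0.25, adjusted p = 0.159), again not past the threshold. Week-24 values lay below the dog's own week-0 value in 5 of 5 ad libitum and 4 of 4 control dogs, with changes of -1.15 in ad libitum dogs (SE 0.40, adjusted p = 0.0826) and -1.02 in control dogs (SE 0.44, adjusted p = 0.139) that did not pass. IGFBP3 averaged 7.75 ± 0.54, 7.23 ± 0.90, 7.45 ± 0.95, 7.23 ± 0.33 and 6.66 ± 0.46 over the 5 weeks in ad libitum dogs (SD, n = 5 each). In control dogs it averaged 7.97 ± 0.31, 8.06 ± 0.22, 7.88 ± 1.12, 7.86 ± 0.59 and 7.07 ± 0.52 (SD, n = 4 each). In both groups week 24 had the lowest mean.

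IGFBP5 (Entrez gene 610316), a binding protein that also attaches to the extracellular matrix, varied widely between dogs at week 24. Its brightest probe set had 5.88, 8.71, 7.19, 6.77 and 7.70 in ad libitum dogs, against 7.96, 10.16, 6.68 and 6.22 in control dogs. The groups overlapped, and the difference was -0.51 with a wide interval of -2.07 to 1.05 (limma adjusted p = 0.742). The highest value was that of control dog 3, on an array with muscle transcripts. The second tested probe set, near the detection level, differed by -0.21 (SE 0.24, adjusted p = 0.652). Over the 5 weeks the brightest averaged 6.89 ± 1.03, 7.36 ± 1.17, 6.36 ± 1.04, 7.47 ± 1.11 and 7.25 ± 1.05 in ad libitum dogs (SD, n = 5 each). The control means were 6.37 ± 1.15, 6.50 ± 0.41, 5.81 ± 0.62, 6.70 ± 1.46 and 7.76 ± 1.76 (SD, n = 4 each). The lowest mean was that of week 8 in both groups.

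At the single weeks before week 24 none of the axis passed the test. Limma called 0 of the 15 at week 0 (against 0% of all), 0 at week 4 (against 0.0132%), 0 at week 8 (against 1.42%) and 0 at week 12 (against 0.00441%). At an unadjusted p under 0.05 stood 0, 3, 4 and 3 of the 15 at these weeks, against 1.38%, 9.08%, 25.0% and 11.1% of all tested probe sets, so that the week-8 share of the members was near that of all. The groups did not overlap in 0 of the 15 at week 0 (0.207% of all), in 2 at week 4 (4.74% of all), in 1 at week 8 and in 0 at week 12 (1.6% of all). Both at week 4 were IGF1 probe sets. In the changes from week 0 averaged over weeks 4 to 12, limma called 0 of the 15 in ad libitum dogs (2.46% of all called; 7 with an unadjusted p under 0.05, against 17.3% of all) and 0 in control dogs (0.00441% of all called; 4 with an unadjusted p under 0.05, against 14.5% of all). The 7 in ad libitum dogs were both GHR probe sets at -0.77 and -0.89 (adjusted p = 0.145 and 0.120), both of IGF1, both of IGFBP4 at 0.78 and 1.07 (adjusted p = 0.120 and 0.0798), and 1 of STAT5B at -0.75 (adjusted p = 0.261). The 4 in control dogs, fed to hold their baseline body weight, were also both probe sets of IGF1 and both of IGFBP4. IGF1 had 0.77 and 0.75 (limma adjusted p = 0.318 each), and IGFBP4 had 0.66 (adjusted p = 0.321) and 1.01 (adjusted p = 0.318).

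Other genes of the pathway were read from 3 lists. Of 17 genes of receptor-near signalling, among them JAK2, STAT3, STAT5A and the further SOCS genes, 14 were on the array and 8 tested, and limma called 0 of them at week 24. Their differences at week 24 ran from -0.52 for JAK2 (SE 0.55, adjusted p = 0.615), the kinase bound to GHR, to 0.20 for STAT5A (SE 0.32, adjusted p = 0.761). The list's median was -0.24, against 0.01 for all tested probe sets.

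Of 19 further genes of the IGF system, 12 were tested and 1 was past the threshold at week 24, a share near the 5.46% of all tested probe sets. This was GRB14, an adaptor that binds the insulin and IGF1 receptors and inhibits them. It had 7.71, 5.40, 8.16, 7.16 and 7.72 in ad libitum dogs 2, 5, 6, 7 and 8, against 5.54, 3.56, 6.05 and 5.29 in control dogs 1, 3, 4 and 9. Ad libitum dog 5 lay among the controls, and the others lay above them. The 3.56 of control dog 3 was below the detection level, and the arrays of control dogs 3 and 4 carried muscle transcripts. The difference was 2.12 (SE 0.62, limma adjusted p = 0.0392) and rests in part on that undetected value. GRB14 was higher by 2.34 at week 24 than at week 0 in ad libitum dogs (SE 0.60, adjusted p = 0.0207). Of all tested probe sets 4.78% were called in that change, where time and batch cannot be told apart.

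IRS1, which links both receptors to PI3 kinase, was lower by 1.39 at week 24 than at week 0 in ad libitum dogs (SE 0.36, limma adjusted p = 0.0245). That too is a change of batch. The week-24 values of ad libitum dogs 5 and 8, 3.56 and 3.81, were below the detection level. The IRS1 difference between groups at week 24 was -0.68 (adjusted p = 0.284). IGFALS, which stabilises IGF and IGFBP3 in a circulating complex, was higher by 0.71 over weeks 4 to 12 in ad libitum dogs (SE 0.17, adjusted p = 0.0265). It was the 1 gene of the 12 tested past the threshold there, against 1.34% of all tested probe sets. That average includes week-8 arrays as labelled, and IGFALS was not tested without the arrays that matched another dog. At week 24 its values were mostly near the detection level of 4, at 4.44 to 4.79 in control dogs and 4.72 to 6.05 in ad libitum dogs. The other binding proteins were not past the threshold at week 24, with -1.20 for IGFBP2, -0.89 for IGFBP6 (adjusted p = 0.117) and -0.20 for IGFBP7. The median of the list at week 24 was -0.21, against 0.01 for all tested probe sets.

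Of 10 genes known to answer growth hormone or STAT5 in rodent or human fat or liver, 8 were tested. At week 24 LIPE, the hormone-sensitive lipase, was the 1 past the threshold, where 5.46% of all tested probe sets were. It had 12.64, 9.82, 12.64, 12.31 and 11.66 in ad libitum dogs, against 10.55, 9.10, 10.04 and 10.48 in control dogs. Ad libitum dog 5 again lay within the control range, and the others above it, with a difference of 1.77 (SE 0.51, adjusted p = 0.0356).

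PDK4, which restrains pyruvate use and is raised by fasting, was lower in ad libitum dogs at week 8 (-1.44, SE 0.33, adjusted p = 0.0432) and over weeks 4 to 12 (-0.96, SE 0.20, adjusted p = 0.00683), and stood at -0.03 at week 24. It fell by 1.46 in ad libitum dogs over weeks 4 to 12 relative to week 0 (SE 0.27, adjusted p = 0.00243). Of all tested probe sets 1.42% were called at week 8, 1.34% over weeks 4 to 12 and 2.46% in that change. Each of these PDK4 calls includes week-8 arrays as labelled, and none was tested without the arrays that matched another dog. CIDEC, a lipid droplet protein, was lower by 1.25 at week 24 than at week 0 in control dogs (SE 0.40, limma adjusted p = 0.0462). In that change 7.92% of all tested probe sets were called, and time and batch cannot be told apart. The CIDEC difference between the groups at week 24 was 0.66 (adjusted p = 0.296). MYC, a growth-control transcription factor, had -0.98 at week 24 (SE 0.48, adjusted p = 0.212). The median of these genes at week 24 was 0.16, against 0.01 for all tested probe sets.

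The members did not move as 1 block. Over the 45 arrays with batch means subtracted, which come from 9 dogs and so are not independent, CISH and SOCS2 had r = 0.35, SOCS2 and IGF1R 0.45, and IGF1 and IGFBP3 -0.44. GHR and IGFBP5 had r = -0.55, the largest in size among the pairs of the 9 tested genes, and GHR and CISH 0.20. Among the 16900 probe sets of other genes with 1 symbol, those most like CISH were MYC (r = 0.75), TRIB1 (r = 0.70) and FOXO1 (r = 0.64). Those most like SOCS2 were EGFR (r = 0.72), ZCCHC8 (r = 0.66) and EIF1B (r = 0.65), and those most like IGF1 were EPHX1 (r = 0.79), NID2 (r = 0.78) and GPLD1 (r = 0.76). GHR had closer companions, with GNAI1 at r = 0.91, PHLDB2 at 0.90 and HSD17B4 at 0.88. Without the arrays with muscle transcripts these 12 correlations were 0.62 to 0.93. CISH was above the detection level on 18 of the 45 arrays, so every r with CISH rests mostly on values below that level.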

How the data were processed

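Total RNA of fat was extracted with Trizol, labelled with biotin by the Affymetrix 1-cycle 3′ method and hybridised, per the labels' protocols. The deposited values are GCRMA expression values on a scale read here as log2 (range 0.42 to 17.51). The submitters' processing notes name GCRMA without a version, and no source used here gives the log base, a filter or a batch correction. Arrays give no molecule counts, so their number limits the precision.

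After 175 control probe sets were left out, 22687 of 42860 probe sets (52.9%) had a log2 value above 4 on at least 4 of 45 arrays and were tested with limma 3.58.1 and statmod 1.5.0 in R 4.3.3. The model held 10 means for feeding group and week, a sum-to-zero term for laboratory batches 1 to 5 of the labels (batch 6 is week 24), and the dog as a random block, with 31 residual degrees of freedom. The animal id of the labels ties the arrays of a dog together, and the correlation within dogs was 0.00563. P-values were adjusted by the Benjamini-Hochberg method over all tested probe sets. The fit was tested on simulated data.

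Symbols and Entrez gene IDs came from the platform annotation, and the gene IDs of 18 of the 20 member probe sets were found in a RefSeq gene table. The members, the lists of further pathway genes and the rule for likeness (the 3 probe sets with the highest r) were chosen with earlier results of these data known. A pathway gene stands at its brightest probe set and is named where it passed the threshold, and JAK2, STAT5A, MYC, IGFBP2, IGFBP6 and IGFBP7 were named after their values were seen. Alternatives concerned the dog block, batch term, filter, normalization, moderation, actin value, muscle transcripts, week-8 arrays and each dog left out.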

Additional observations from a re-analysis of the deposited data

Results flagged for a closer look

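In 12 of 150 groups of 4 or 5 dogs, 1 dog's value stood far from the others of its probe set, group and week, where chance gives about 5%. At week 24 this held for ad libitum dog 2 in SOCS2 (6.66, others 7.32 to 7.45) and in the brightest IGF1R probe set (3.98, others 5.93 to 6.66), both past the threshold that week. Without dog 2 the week-24 differences were -1.28 for SOCS2 (adjusted p = 0.109) and -0.99 for IGF1R (adjusted p = 0.177). Ad libitum dog 5 at week 24 was low in the second STAT5B probe set (7.32, others 8.21 to 8.53) and high in the second IGFBP5 probe set (5.05, others 4.33 to 4.34).

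Control dog 4 at week 4 was apart in 3 probe sets, low in GHR (12.98, others 13.80 to 13.84) and in the second IGFBP5 probe set (4.16, others 4.34 to 4.36) and high in the dimmer IGFBP4 probe set (9.53, others 8.20 to 8.32). In the same IGFBP4 probe set ad libitum dog 6 was high at week 4 (10.16, others 8.04 to 8.46). Control dog 1 was low in IGF1R at week 12 (5.65, others 7.03 to 7.28). In the brightest IGFBP5 probe set ad libitum dog 2 was low at week 8 (4.52, others 6.63 to 7.08). The last 2 values came from arrays with muscle transcripts: ad libitum dog 5 at week 0 in the brightest IGFBP5 probe set (8.65, others 5.95 to 6.68) and control dog 4 at week 8 in the second (4.51, others 4.35 to 4.37).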

How the results depend on the processing

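The number of dogs, and 2 control arrays with muscle transcripts at week 24, limit these results. The 7 week-24 calls became 1 with no filter on low values, which tests more probe sets, 0 without the arrays with muscle transcripts, and 0 with the actin value. With 1 dog left out the count ran from 0 to 8: 0 without dog 2, 3 or 7, 2 without dog 4 or 9, and 3 without dog 1, 6 or 8. The signs of the 7 were kept in every alternative, whereas uncalled values near 0 changed sign in some: GHR kept its sign in 11 and 14 of 19 alternatives, STAT5B in 18 of 19 for each probe set, and IGFBP5 in 17 of 19 and 16 of 18. Where no construction shows it, the cause was not tested.

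At week 4 the count of 0 became 2 with no batch term and 1 without the arrays with muscle transcripts. At week 8 it became 1 with the stricter filter (log2 above 5 on at least 9 arrays) and 2 without the arrays with muscle transcripts, and 0 to 2 with 1 dog left out (2 without dog 7, 1 without dog 8). Over weeks 4 to 12 the count of 1 became 2 without the week-8 arrays labelled dogs 5 and 9, and 0 to 2 with 1 dog left out (0 without dog 1, 3, 4 or 8, 2 without dog 5).

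With no replicate block for dog the change in ad libitum dogs at week 24 had 0 calls in place of 1 (STAT5B), as it had with no filter and without the arrays with muscle transcripts. With 1 dog left out it had 0 or 1, with 1 only without dog 4. The change in control dogs at week 24 had 0 in place of 1 (also STAT5B) with no filter, without the arrays with muscle transcripts and with the actin value, and 0 to 2 with 1 dog left out (0 without dog 3, 4, 6 or 9, 2 without dog 5). The change in ad libitum dogs over weeks 4 to 12 had 1 call in place of 0 with the dog as a fixed replicate block, 6 with no batch term, 2 without the week-8 arrays labelled dogs 5 and 9, and 0 to 4 with 1 dog left out (4 without dog 8). The block moved no other count by more than 1.5 times. Counts at weeks 0 and 12, of the feeding effect at week 24, of the averaged feeding effect and of the change in control dogs over weeks 4 to 12 were 0 in all alternatives run.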
